A study of Mus musculus with 2 samples.

Results

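The genes described are the ligands, the processing machinery and the targets of the Notch pathway in ALL65, measured by RNA sequencing. ALL65 is 1 primary leukaemia of the mouse, an acute lymphoblastic leukaemia of the T lineage (T-ALL). The 37 members were taken from a list of names of Notch pathway genes other than the receptors, and all 37 were found by symbol among the 27179 genes of the deposited count table. ALL65 carries the transgenes Vav-tTA, a tetracycline transactivator under the Vav promoter of blood cells, and TRE-GFP-shIkaros, a responder that makes green fluorescent protein (GFP) and a short hairpin RNA against Ikaros. Both groups carry both transgenes, so that the untreated cells are not cells with normal Ikaros. The untreated group is the GFPhigh T-ALL cells of leukaemic recipient mice that received no doxycycline (Dox). The Dox group is the GFPmid T-ALL cells of recipient mice given Dox for 3 days, which shuts off the hairpin and lets the cells' own Ikaros return. The cells of both groups were sorted from the spleen, and because the gate changes together with the treatment, their effects cannot be told apart. The sources used here give neither the strain nor the age of the mice.

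Each group is 1 library, with no replicate error and no test, and all differences below are descriptions of these 2 libraries. The submitters' design names 3 mice per group and 2 sequencing runs of each RNA. The table has 1 column per group, and the sources used here do not say how mice and runs were combined. The total was 7477988 counts without Dox and 14457475 with Dox, so that the untreated value limits the precision of most ratios. Levels are given in CPM, counts per 1000000 of the library size after TMM scaling (trimmed mean of M values). Ratios are Dox over untreated on the log2 scale, with an exact 95% counting interval in brackets that covers counting error only. Ikzf1, the gene of Ikaros and the target of the hairpin, stood at 262 CPM without Dox and at 1455 CPM with Dox. Of the 15 T lineage markers 14 were at 1 CPM or more when both libraries were averaged, while Ptcra, the pre-T cell receptor alpha gene, had 3 counts and 0 counts. All 14 reached 5 CPM in either library. Only 5 of them (35.7%) lay within 1.5-fold, beside 87.5% of all genes past that minimum. Among these 5 were Lck at 1338 and 1156 CPM and Thy1 at 1245 and 1329 CPM. Cd2, at 10.1 and 109 CPM, and Cd5, at 11.4 and 71.2 CPM, were the T lineage markers with the largest differences on the higher side, and Rag1, at 90.5 and 31.1 CPM, and Dntt, at 918 and 422 CPM, those on the lower side. The part of these differences in the ratios below was not tested. All 6 B cell markers and all 4 NK cell markers were under 1 CPM, and the 6 erythroid and platelet markers summed to 2.76 and 4.08 CPM. The 8 myeloid and dendritic markers summed to 19.9 and 23.8 CPM, with Lyz2 lower with Dox, at 7.24 and 1.69 CPM, and Itgam and Cd68 higher, at 8.42 and 14.7 CPM and at 3.29 and 6.19 CPM.

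Notch is a receptor that is cut when it binds a ligand on a neighbouring cell. Sugars added to its extracellular part tune which ligands it answers, an ADAM protease makes the outer cut, gamma-secretase makes the inner cut, and the freed intracellular part joins Rbpj and a Mastermind-like coactivator on DNA to switch on targets such as Hes1. In the thymus this signal commits progenitors to the T lineage, and in T-ALL it is commonly overactive.

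Of the members that reached 5 CPM in either library, 3 targets and 1 nuclear coactivator differed by 1.5-fold or more. Jag2 and Dtx4, under 5 CPM in both libraries, were 1.58-fold and 1.67-fold lower with Dox, with intervals that include 0 under TMM scaling. The transcriptional repressor genes Heyl and Hes1 were 2.62-fold and 1.59-fold lower with Dox, and the coactivator gene Maml3 was 1.66-fold lower. Trib2, a pseudokinase gene that Notch activates in leukaemia cells, was 1.59-fold higher. With a minimum of 5 CPM in whichever library was higher, 26 members could be counted, and 22 of them (84.6%) lay within 1.5-fold, beside 87.5% of all 10113 genes past that minimum. In bulk RNA, fewer cells that express a gene and less of its RNA per cell cannot be told apart.

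Those 26 members held 3 at least 1.5-fold lower with Dox, which is 11.5% of them, where 6.18% of all genes past the same minimum were that much lower. Trib2 alone was at least 1.5-fold higher, which is 3.85%, where the share of all genes was 6.28%. Past 2-fold were Heyl on the lower side, where the share of all genes was 2.24%, and 0 members on the higher side, where it was 2.21%. Counting intervals lay wholly below 0 for 6 members, or 23.1%, beside 23.8% of all genes, and wholly above 0 for 5 members, or 19.2%, beside 26.9% of all genes. The shares by counting interval were thus close to or under those of all genes. The median log2 ratio of the 29 members whose average over both libraries reached 1 CPM, called measured below, was 0.05, and that of the 11498 genes past that minimum was 0.01.

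**Figure D1:**
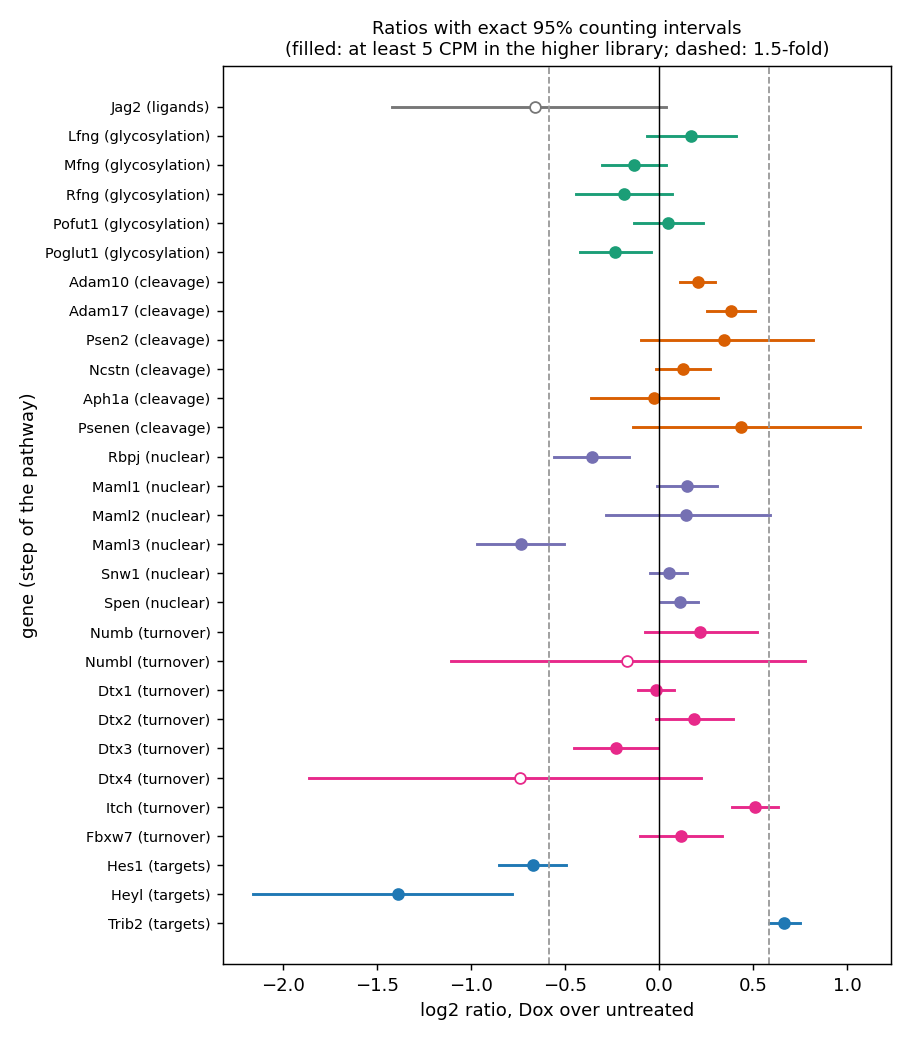
Log2 ratio of Dox over untreated (x axis) for the 29 members whose average over both libraries reached 1 CPM, listed by step of the pathway (y axis). Points are the ratios of 1 library per group, horizontal lines are exact 95% counting intervals, and open points mark genes under 5 CPM in both libraries. Heyl lies farthest to the left at -1.39 and Trib2 farthest to the right at 0.67, and most points lie between the dashed lines at 1.5-fold.

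The ligands were near or under the detection limit in both libraries. Dll1 and Dll3, genes of Delta-like ligands, had 0 counts in each library, which allows up to 0.395 CPM without Dox and up to 0.211 CPM with Dox. Dll4, which encodes the main Notch ligand of the thymic epithelium, had 2 counts in each library, and Jag1, a Jagged ligand gene, had 2 and 1. The ligand gene with more than a few counts was Jag2, with 32 untreated counts and 37 Dox counts, or 4.21 and 2.60 CPM, which gives a log2 ratio of -0.66 (-1.42 to 0.03). Its interval includes 0, which for Jag2 depends on the scaling, as described below. Its level per length, 1.04 and 0.642 CPM per kilobase, was far under that of most members of the other steps.

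Cells other than the leukaemia can carry Notch ligands, so the endothelial and stromal markers are given beside them. Of 15 such markers, 4 were measured, and the 15 summed to 361 CPM without Dox and 329.9 CPM with Dox. Nearly all of that sum came from Pecam1, which lymphocytes also transcribe, at 159 and 205 CPM, from Col1a2 at 165 and 112 CPM and from Pdgfrb at 35.3 and 10.5 CPM. The defining endothelial genes Cdh5, Kdr and Emcn and the stromal genes Col3a1, Ccl19, Ccl21a and Dcn had 0 counts in both libraries. Pdgfrb had a ratio of -1.72 (-2.04 to -1.45), Col1a2 one of -0.56 (-0.67 to -0.45) and Pecam1 one of 0.37 (0.27 to 0.47). The part of such cells in the ligand counts was not tested.

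The 5 members that encode enzymes for the sugars of Notch were all measured and all lay within 1.5-fold, as did 87.5% of all genes past 5 CPM. The fringe genes encode glycosyltransferases that extend O-fucose and tune how Notch answers its ligands. Mfng was the most abundant of them per length, at 32.1 CPM per kilobase without Dox and 29.3 with Dox, and made up 56.0% and 53.7% of the summed fringe level per length. Its 448 and 764 counts gave 58.9 and 53.7 CPM, that is a log2 ratio of -0.13 (-0.30 to 0.04). Lfng, at 28.4 and 32.0 CPM, and Rfng, at 27.2 and 23.9 CPM, had ratios of 0.17 (-0.07 to 0.41) and -0.19 (-0.44 to 0.07). The intervals of all 3 fringe genes include 0, which for Mfng depends on the scaling, as described below.

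Pofut1, which adds the O-fucose that the fringe enzymes extend, stood at 49.1 and 50.8 CPM, and the ratio was 0.05 (-0.13 to 0.23). Poglut1, which adds O-glucose, was the next most abundant of these 5 genes per length after Mfng, at 18.8 and 16.0 CPM per kilobase. Its 377 and 600 counts gave 49.6 and 42.2 CPM, for a ratio of -0.23 (-0.42 to -0.04), the only interval of the 5 sugar enzyme genes that lay clear of 0. The median ratio of the 5 genes was -0.13.

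Of the cleavage step, Adam10 and Adam17 stood slightly higher with Dox, with counting intervals clear of 0, and the intervals of the other 4 measured genes include 0. All 6 measured genes lay within 1.5-fold. Of these 6, 5 had a ratio above 0, beside 5889 of the 11498 measured genes in all, and the median was 0.27. Adam10, which encodes the protease that makes the outer cut after ligand binding, had 1400 and 3019 counts, or 184 and 212 CPM, which gives a log2 ratio of 0.20 (0.11 to 0.30). Adam17, a related protease gene with many membrane substrates, had 700 and 1708 counts, or 92.1 and 120 CPM, for a ratio of 0.38 (0.25 to 0.51). Per length, Adam10 was the more abundant in both libraries, at 40.1 and 46.2 CPM per kilobase against 20.9 and 27.2 for Adam17.

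Gamma-secretase is built from a presenilin, nicastrin, an Aph1 subunit and Pen2. Ncstn, the gene of nicastrin, had 584 and 1194 counts, or 76.8 and 83.9 CPM, for a ratio of 0.13 (-0.02 to 0.27). It was the most abundant of the listed subunit genes per length, at 26.9 and 29.4 CPM per kilobase. Psenen, the gene of Pen2, had only 34 and 87 counts, with a ratio of 0.44 (-0.14 to 1.07), and Psen2, a presenilin gene, had 59 and 141 counts, with a ratio of 0.35 (-0.10 to 0.82). Aph1a stood at 15.3 and 15.0 CPM, a ratio of -0.03 (-0.36 to 0.31). Aph1b, which has a near-identical copy in the mouse genome so that its reads may be split, had 2 and 4 counts. The interval of each of these 4 measured subunit genes includes 0, so that no difference in any of them was detectable at this depth.

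**Figure D2:**
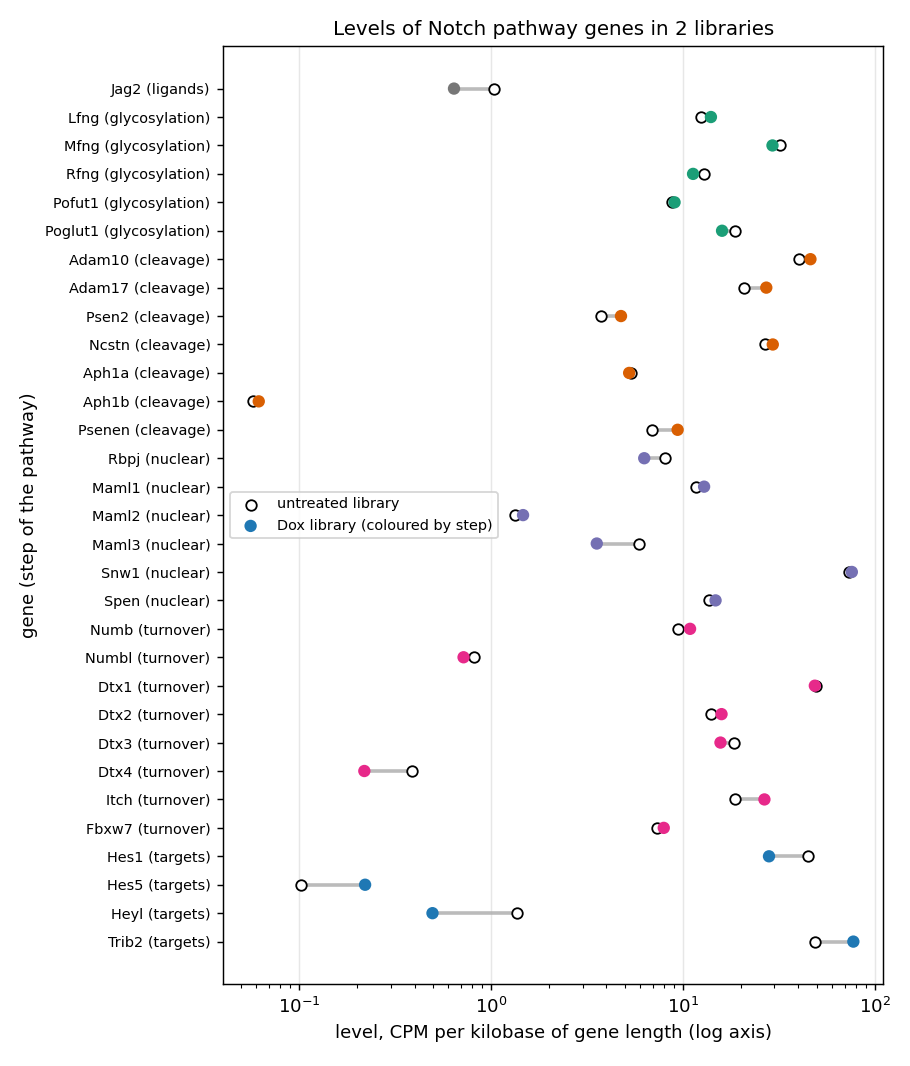
Level per length in CPM per kilobase (x axis, log scale) of each member with more than 3 counts in at least 1 library, by step of the pathway (y axis). Open points are the untreated library, filled points the Dox library and grey lines join them. The 2 points lie close together for most genes and farther apart for Heyl, Hes1, Maml3 and Trib2, and for the genes of few counts Jag2, Dtx4 and Hes5. Snw1 and Trib2 reach the highest levels with Dox, at 75.9 and 77.3 CPM per kilobase.

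Among the nuclear factors, the DNA-binding protein gene and 1 of the 3 coactivator genes stood lower with Dox. Rbpj, which encodes the factor that brings Notch to DNA, had 350 and 511 counts, or 46.1 and 35.9 CPM, which gives a log2 ratio of -0.36 (-0.56 to -0.16), a difference under 1.5-fold. Maml3 (Entrez Gene 433586, chromosome 3 from 51687320 to 52105319 in GRCm38.p6, the assembly behind mm10) had 294 and 330 counts, or 38.7 and 23.2 CPM, for a ratio of -0.73 (-0.97 to -0.51). Its interval lies clear of 0 but also holds differences smaller than 1.5-fold. The related coactivator genes Maml1, at 64.9 and 71.8 CPM, and Maml2, at 8.95 and 9.91 CPM, had ratios of 0.15 (-0.01 to 0.31) and 0.14 (-0.28 to 0.59).

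The makeup of the Mastermind-like family therefore differed more than its total. The summed level per length of the 3 genes was 18.9 CPM per kilobase without Dox and 18.0 with Dox. Maml3 made up 31.3% of it without Dox and 19.8% with Dox, and Maml1 61.7% and 72.0%. Spen, a corepressor that holds Rbpj targets silent, had 1280 and 2583 counts and a ratio of 0.11 (0.01 to 0.21), and its level per length was 13.7 and 14.8 CPM per kilobase. Snw1, which encodes the splicing and transcription cofactor SKIP, was the most abundant nuclear factor gene per length, at 73.2 and 75.9 CPM per kilobase, with a ratio of 0.05 (-0.05 to 0.15). Exons of Slirp on the opposite strand cover 44.2% of the exon bases of Snw1 in GENCODE M21, and the strand setting of the counting is not given, so its level is uncertain.

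Rbpj and Ikaros bind overlapping letters: the core of an Rbpj site is TGGGAA, and Ikaros sites commonly hold the same 6 letters. These letters were looked for in RefSeq's promoter table for GRCm38.p6, in the 250 bases before each start that the table lists, on both strands. A listed start is that of 1 transcript and need not be the outermost start of the gene. Shown, each as 30 bases on the strand of the gene, are the matches of the members whose counting interval lay clear of 0, and capitals mark TGGGAA or, for the other strand, TTCCCA.
Maml3, chr3:52105174-52105203, minus strand: gcaggtcggggcTTCCCAgcctggggagca
Rbpj, chr5:53590185-53590214, plus strand: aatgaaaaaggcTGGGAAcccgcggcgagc
Rbpj, chr5:53590269-53590298, plus strand: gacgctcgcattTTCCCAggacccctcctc
Poglut1, chr16:38550302-38550331, minus strand: ctgctgccttatTTCCCAtgccaggctccc
Spen, chr4:141538588-141538617, minus strand: cgcgcgcgccggTGGGAAgcgtccggcagc
The Maml3 letters begin 185 bases before the listed start, which itself lies 313 bases inside the span that RefSeq gives the gene. Those of Rbpj begin 149 and 65 bases before a listed start that lies 34567 bases inside the gene span. The 30 bases shown around each overlap an exon of Rbpj in GENCODE M21. Overlap of the 6 letters themselves was not checked. Those of Poglut1 and Spen begin 63 and 8 bases before the listed start, and the 30 bases of Spen also overlap an exon of Spen there. Maml3, Rbpj and Poglut1 stood lower with Dox and Spen slightly higher. The windows of Adam10, Adam17 and Trib2, the other members with an entry and an interval clear of 0, hold 0 matches. The letters also stood before Dtx2, Hes5, Lfng, Maml2, Psen2 and Psenen, whose intervals all include 0. A link between the letters and the ratios was not tested. Of the 37 members 29 matched the promoter table, with 38 promoters, and 11 of the 38 (28.9%) held the letters on either strand. Of all 32851 promoters of the table, 21.6% held them. Overlapping windows were counted separately in both shares. Rbpj has a further listed start whose window overlaps the first and holds the same TTCCCA, and both windows count among the 11. With the longer form GTGGGAA, which contains the shorter one, the shares were 10.5% of member promoters and 5.42% of all promoters. A match describes the letters and is not a binding site. Mfng, Snw1, Dtx3, Dtx4, Itch, Hes1, Hey1 and Heyl had no entry.

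The genes that control the turnover of Notch went in both directions by small amounts, with a median ratio of 0.05 over 8 measured members. Itch (Entrez Gene 16396, chromosome 2 from 155133481 to 155226855), the gene of a ubiquitin ligase that marks Notch and other proteins for degradation, had the largest difference of this step past 5 CPM. It had 767 and 2041 counts, or 101 and 143 CPM, which gives a log2 ratio of 0.51 (0.39 to 0.63), which is 1.42-fold and just short of 1.5-fold. Fbxw7, the substrate receptor that targets intracellular Notch and Myc and is often mutated in T-ALL, stood at 34.9 and 37.7 CPM, and the ratio was 0.11 (-0.10 to 0.33). Numb, an adaptor that opposes Notch at the membrane, stood at 18.4 and 21.4 CPM, and the ratio was 0.22 (-0.07 to 0.52). Its relative Numbl had 17 and 28 counts and a ratio of -0.17 (-1.10 to 0.78).

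Dtx1, a Deltex ubiquitin ligase gene that is also a Notch target in T cells, was nearly equal in both libraries. Its 1390 and 2575 counts gave 183 and 181 CPM, that is a log2 ratio of -0.01 (-0.11 to 0.08), so that the whole interval lies within 1.5-fold. It made up 60.0% and 60.5% of the summed level per length of the 4 Deltex genes, which was 82.0 and 80.5 CPM per kilobase. Dtx2 had a ratio of 0.18 (-0.02 to 0.39) at 38.3 and 43.5 CPM. Dtx3 had a ratio of -0.23 (-0.45 to -0.01) at 35.8 and 30.5 CPM. Dtx4 stood at -0.74 (-1.86 to 0.22) on 17 and 18 counts and stayed under 5 CPM in both libraries.

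Of the 6 listed target genes 3 were measured, and they differed in direction. Hes1 (Entrez Gene 15205, chromosome 16 from 30065357 to 30067796) encodes a repressor that Notch induces directly. It had 493 untreated and 579 Dox counts, or 64.9 and 40.7 CPM, which gives a log2 ratio of -0.67 (-0.85 to -0.50). Heyl (Entrez Gene 56198, chromosome 4 from 123233556 to 123249870), a related repressor gene, had 47 and 32 counts, or 6.18 and 2.25 CPM, for a ratio of -1.39 (-2.15 to -0.78). The whole interval of Heyl lies past 1.5-fold, while that of Hes1 also holds smaller differences. The level of Heyl per length, 1.36 and 0.496 CPM per kilobase, was among the lowest of the measured members.

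Trib2 (Entrez Gene 217410, chromosome 12 from 15791725 to 15816962) went the other way. It had 1555 and 4618 counts, or 205 and 325 CPM, which gives a log2 ratio of 0.67 (0.58 to 0.75), the highest of the measured members. The lower end of its interval lies at about 1.5-fold. Per length, Trib2 and Hes1 were at like levels without Dox, 48.7 and 44.7 CPM per kilobase, and apart with Dox, 77.3 and 28.1. Of the 10113 genes past 5 CPM, 5.01% had a higher ratio than Trib2, 4.79% a lower one than Hes1 and 1.32% a lower one than Heyl. In GENCODE M21 no exon of another gene overlaps the exons of Hes1, Heyl, Maml3 or Trib2.

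The remaining targets were near or under the detection limit. Hey1 had 0 counts in both libraries, Hes5 had 1 and 4, and Nrarp, which encodes a feedback inhibitor of the Notch complex, had 1 and 3. For Hes5 the ratio was 0.56 (-2.24 to 6.72). Antisense exons cover 79.4% of the exon bases of Nrarp and 31.8% of those of Hes5 in GENCODE M21, and how shared reads were counted is not given, and the part of this overlap in the low counts was not tested. The matches of Hes5, a classic Rbpj target, are shown for the same letters, with capitals as above.
Hes5, chr4:154960829-154960858, plus strand: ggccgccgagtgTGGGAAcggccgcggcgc
Hes5, chr4:154960685-154960714, plus strand: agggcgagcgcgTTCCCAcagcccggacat
They begin 82 and 226 bases before the listed start, which lies 297 bases inside the RefSeq span of Hes5, and neither overlaps an exon of Hes5 in GENCODE M21.

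**Figure D3:**
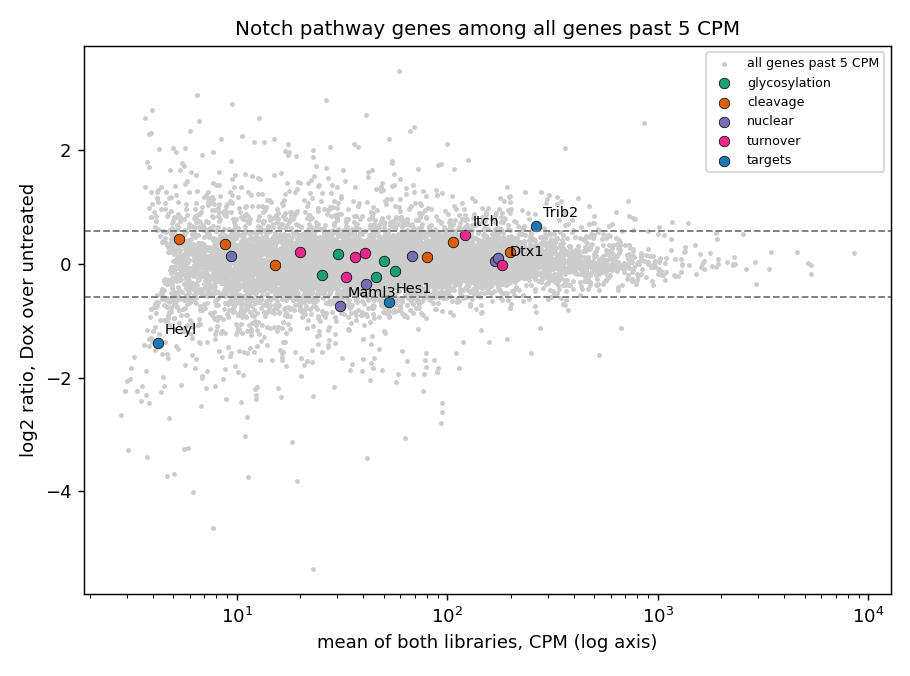
Log2 ratio of Dox over untreated (y axis) against the mean of both libraries in CPM (x axis, log scale) for the 10113 genes that reached 5 CPM in either library (grey) and the 26 members among them (coloured by step). Dashed lines mark 1.5-fold. Heyl, Maml3 and Hes1 lie below the lower line and Trib2 above the upper one, and the other 22 members lie between the lines.

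The other genes of the Notch pathway, a list of 72, held the receptors, their modifiers and further targets. Of the 51 past 5 CPM, 7 were at least 1.5-fold lower with Dox (13.7%, beside 6.18% of all genes), 1 was at least 1.5-fold higher (1.96%, beside 6.28%), and 43 (84.3%) lay within 1.5-fold, beside 87.5% of all genes. The median over the 54 measured ones was 0.02. The receptor genes Notch1, at 789 and 261 CPM, and Notch3, at 123 and 32.0 CPM, stood lower, with log2 ratios of -1.60 (-1.66 to -1.54) and -1.94 (-2.11 to -1.78). Notch2 had a ratio of 0.34 (0.20 to 0.49), and Notch4 had 6 and 9 counts. The differences of Notch1 and Notch3 were larger than that of every processing or nuclear gene described above.

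Poglut2 and Gxylt1, of the other enzymes that act on Notch sugars, differed by more than any of the 5 sugar enzyme genes above. Poglut2, which adds O-glucose at another position of the repeat than Poglut1, had 359 and 300 counts, or 47.2 and 21.1 CPM, for a ratio of -1.16 (-1.39 to -0.94). Gxylt1, which adds xylose to O-glucose on Notch, had 330 and 1097 counts, or 43.4 and 77.1 CPM, for a ratio of 0.83 (0.65 to 1.01). Mib1, the ubiquitin ligase that a cell needs to send a signal with its ligands, had 805 and 932 counts, or 106 and 65.5 CPM, for a ratio of -0.69 (-0.83 to -0.56). Poglut2 and Gxylt1 thus went in opposite directions.

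Known targets of Notch in T cells outside the member list went in both directions. Of the 10 measured ones 7 had a ratio under 0, beside 5609 of the 11498 measured genes in all, and the median was -0.29. Of the 9 past 5 CPM, 5 had counting intervals wholly below 0 and 3 wholly above it. The shares of all genes past that minimum were 23.8% below and 26.9% above. Il2ra, the gene of the interleukin 2 receptor alpha chain, had 345 and 13 counts and a ratio of -5.38 (-6.56 to -4.84), Runx1 one of -1.12 (-1.20 to -1.04) and Myc one of -0.72 (-0.79 to -0.65). Igf1r and Ccnd3 also stood lower, with ratios of -0.51 (-0.61 to -0.41) and -0.13 (-0.22 to -0.04). Hes6, Nfkb2 and Gata3 stood higher, with ratios of 0.32 (0.15 to 0.48), 0.24 (0.03 to 0.46) and 0.09 (0.01 to 0.18). Scaling by total counts moved the median ratio of all genes by -0.05, a larger shift than the lower bounds of Nfkb2 and Gata3. Whether the intervals of these genes lie clear of 0 thus depends on the scaling. Bcl2 had a ratio of -0.02 (-0.24 to 0.19). The ratio of Myc was of the size of that of Hes1. Of the 15 measured corepressor and coactivator genes 15 lay within 1.5-fold, and so did all 11 of the other turnover genes, where the share of all genes past 5 CPM was 87.5%. Among the corepressors and coactivators were Ncor1 at 624 and 643 CPM and Ep300 at 165 and 226 CPM. Rita1, of the same list, lay just short of the limit, at 1.48-fold lower with Dox. Nedd4, a ubiquitin ligase gene, had the highest level of the turnover genes in CPM, at 413 and 569, for a ratio of 0.46 (0.40 to 0.52).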

How the data were processed

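RNA sequencing was done on sorted T-ALL cells, with 1 library without Dox and 1 with Dox. The authors deposited raw counts, the whole number of reads assigned to each gene, and a gene length. Per the submitters' processing notes, CASAVA 1.8.2 and featureCounts were used with mm10. Not given in the sources used here are the aligner, the gene models, whether strand was used and how shared reads were handled. Series and single-library tables differed in 0 values.

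Genes were named by Entrez number from RefSeq (GRCm38.p6), which gave 25275 symbols and left 1904 genes unnamed. Counts were scaled with TMM factors of edgeR 4.0.16 (1.016 untreated, 0.984 Dox). Log2 ratios used a prior count of 2, and folds are these ratios on the linear scale. Intervals are exact Clopper-Pearson intervals, without the prior count. They, and the upper limit taken for a count of 0 (3 counts), hold counting error and no spread between mice. No test was possible with a single library in each group. Genes were called measured when both libraries averaged 1 CPM or more. Counts past a fold took genes that reached 5 CPM in either library. Levels per length use the deposited gene length. Exon overlaps came from GENCODE M21. Promoter windows start from the transcript starts that the RefSeq promoter table lists.

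The members and lists were chosen with earlier results of these data known. Named genes were every member past 1.5-fold, the targets, the most abundant 2 per step, the receptors and up to 6 other pathway genes with the largest ratios. Igf1r, Ccnd3, Hes6, Nfkb2, Gata3 and Bcl2, the other known targets past 5 CPM, were named outside this rule. Other members are given by count or in brief. Ncor1, Ep300, Rita1, Nedd4 and the cell type markers with values were picked after their values were seen. Ratios and intervals were tested on simulated counts with known folds and counting error only. Such counts hold no spread between mice, so they cannot show how the intervals behave with it. DESeq2 1.42.0 gave the size factors of an alternative.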

Additional observations from a re-analysis of the deposited data

How the results depend on the processing

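The alternatives were DESeq2 size factors, total counts, upper quartile scaling, prior counts of 0.5 and 5, Dox counts thinned to the untreated total, removal of the trend with gene length, and other CPM minimums. Under the first 7 of these, the counts of members past 1.5-fold and 2-fold did not move by more than 1.5 times, and 0 of 217 recomputed member ratios left their own counting interval. Of 26 members past 5 CPM, Snw1 and Dtx1 changed sign under an alternative. Total counts moved the median ratio of all genes by -0.05. That shift is larger than the lower bound of the interval of Spen, 0.01, so whether this interval lies clear of 0 depends on the scaling. The same shift is larger than the upper bounds of Mfng and Jag2, 0.04 and 0.03. Whether those intervals include 0 thus depends on the scaling too. The number of members at least 1.5-fold lower, 3, was 5 with a minimum of 1 CPM and 6 with none, and 1 where the interval bound nearest to 0 had to pass 1.5-fold. By that bound, 0 members passed 1.5-fold on the higher side and 0 passed 2-fold on the lower side. With a minimum of 20 CPM, 0 were at least 2-fold lower, since Heyl is under it. Of the other pathway genes, the number at least 1.5-fold lower, 7, was 8 with total counts and with upper quartile scaling. The median ratio of the target genes, -0.67, was -0.0023 with a mean of at least 5 CPM, which leaves Hes1 and Trib2, and 0.16 with no filter on low counts. No ligand gene had a mean of 5 CPM, so no median was computed there. No paired analysis was possible because each group has 1 library. Depth limits Heyl, Jag2, Psenen and Psen2, each with at most 59 untreated counts.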

Other observations

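Genes that help or hold back the ADAM proteases were not all at like levels. Tspan14, a tetraspanin that carries Adam10 to the cell surface, stood at 73.6 and 92.4 CPM, which gives a log2 ratio of 0.33 (0.18 to 0.47). Tspan15, another partner of Adam10, stood at 20.4 and 14.4 CPM, for a ratio of -0.50 (-0.81 to -0.19). Tspan5 stood at 58.0 and 55.7 CPM, for a ratio of -0.06 (-0.23 to 0.11). Tspan10, Tspan17 and the protease inhibitor gene Timp3 had 0 counts in both libraries. Rhbdf1, an inactive rhomboid that matures Adam17, had 23 untreated and 3 Dox counts, a ratio of -3.03 (-6.22 to -2.12). It stayed under 5 CPM in both libraries. Its relative Rhbdf2 had 68 and 114 counts, a ratio of -0.16 (-0.60 to 0.30). The 4 genes of this list past 5 CPM all lay within 1.5-fold, beside 87.5% of all genes. The genes named here were chosen for mention after their values were seen.

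Ctbp2, a corepressor gene that most cells transcribe, was listed at 0 in both libraries, while its relative Ctbp1 had 2689 and 5686 counts. The cause was not tested. It is a value to keep beside the counts of 0 given for ligand and target genes.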
